A study of Homo sapiens with 6 samples.

Results

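HSP90 client kinases are protein kinases that depend on the chaperone HSP90 to fold and stay stable, and 9 of their genes were examined here at the mRNA level: *MET*, *IGF1R*, *INSR*, *SRC*, *BRAF*, *ARAF*, *CHEK1*, *WEE1* and *PLK1*. They were taken by gene symbol and not by a rule on their values, though with earlier results of these data known. All 9 were found among the 26255 genes listed for every sample. The samples were 22RV1 cells, a human castration-resistant prostate cancer (CRPC) line, given DMSO (3 samples) or 10 nM bruceantin (BCT) (3 samples) for 24 h. BCT is a plant quassinoid, and both groups grew in RPMI medium with 10% FBS, so serum androgens and growth factors were present in the controls too. The comparison asks how the mRNA levels of these kinases differ between BCT-treated and control cells. Proteins were not measured in these data.

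HSP90 works with the cochaperone CDC37, which delivers newly made kinases to it. Many oncogenic kinases are clients, and an HSP90 inhibitor is known to lower such clients as proteins, through ubiquitination and the proteasome. The mRNA of a client is made upstream of that step. MET, IGF1R and INSR are receptor tyrosine kinases, SRC is a membrane-attached tyrosine kinase, BRAF and ARAF pass the signal from RAS to MEK and ERK, CHEK1 and WEE1 hold back the cell cycle when DNA is damaged or incompletely copied, and PLK1 drives entry into and passage through mitosis.

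Levels are given as FPKM, the number of fragments of a gene scaled by transcript length and by the mapped reads of the sample, which allows levels of different genes to be set side by side. The summed FPKM was 1169649 to 1572321 in the DMSO samples and 757534 to 799838 in the BCT samples. The small RNA gene *MIR6087* held 43.5% to 55.3% of it in the control samples and 31.7% to 32.5% in the treated ones, and the values were used as deposited. Depth as a number of reads is unknown from such values. Estimated indirectly from the values of genes near the floor, as a ratio to DMSO replicate 1, it was 0.877 to 1 with DMSO and 1.05 to 1.13 with BCT. A gene was tested if its FPKM averaged 1 or more across the samples, and called if its log2 fold change exceeded 0.85 in either direction with an FDR below 0.05 in limma. BCT replicate 1 was the BCT sample nearest to the DMSO mean in 87.8% of the called genes and in 5 of the 9 kinases, and the fold changes of the tested kinases are given with and without it. All 10 luminal prostate markers examined were above the filter on low values, with *KRT8* at 270 FPKM and *KRT18* at 337 FPKM in the DMSO samples. Of the 10, 4 were called lower with BCT and 2 higher, beside 17.8% and 13.9% of all tested genes. By contrast, 6 of 8 immune, endothelial and stromal markers were at or below 0.0980 FPKM in both group means. The other 2, *CD68* and *COL1A1*, were at 2.50 and 1.43 FPKM with DMSO and 6.39 and 5.83 FPKM with BCT, and their part in the results below was not tested.

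Of the 8 kinases tested, *BRAF* and *MET* rose and *INSR* fell. That is 3 of 8, beside 31.6% called among all 12729 tested genes. The 2 of 8 called higher stand beside 13.9% of all genes, and the 1 of 8 called lower beside 17.8%. *CHEK1* and *WEE1* were lower by a little less than the fold threshold, *ARAF*, *SRC* and *PLK1* differed by less, and *IGF1R* was below the filter in both groups. The BCT and DMSO values did not overlap for any of the 9 kinases, but that held for 85.3% of all tested genes. The FDR alone was passed by all 8 tested kinases and by 82.1% of all tested genes. These shares do not set the kinases apart from the rest of the transcriptome. The same 3 kinases were called without BCT replicate 1. Of 13 listed relatives of the 9 kinases, 10 were tested, 2 were called lower and 2 higher (0 and 6 with equal FPKM sums, 1 and 3 with the gene *MIR6087* left out of the sums). Their median log2 fold change was 0.17, beside -0.04 for all tested genes. Over all 12729 genes, 668 were lower and 5614 (44.1%) higher with equal sums, and 1208 and 3370 without *MIR6087* in the sums.

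**Figure D1:**
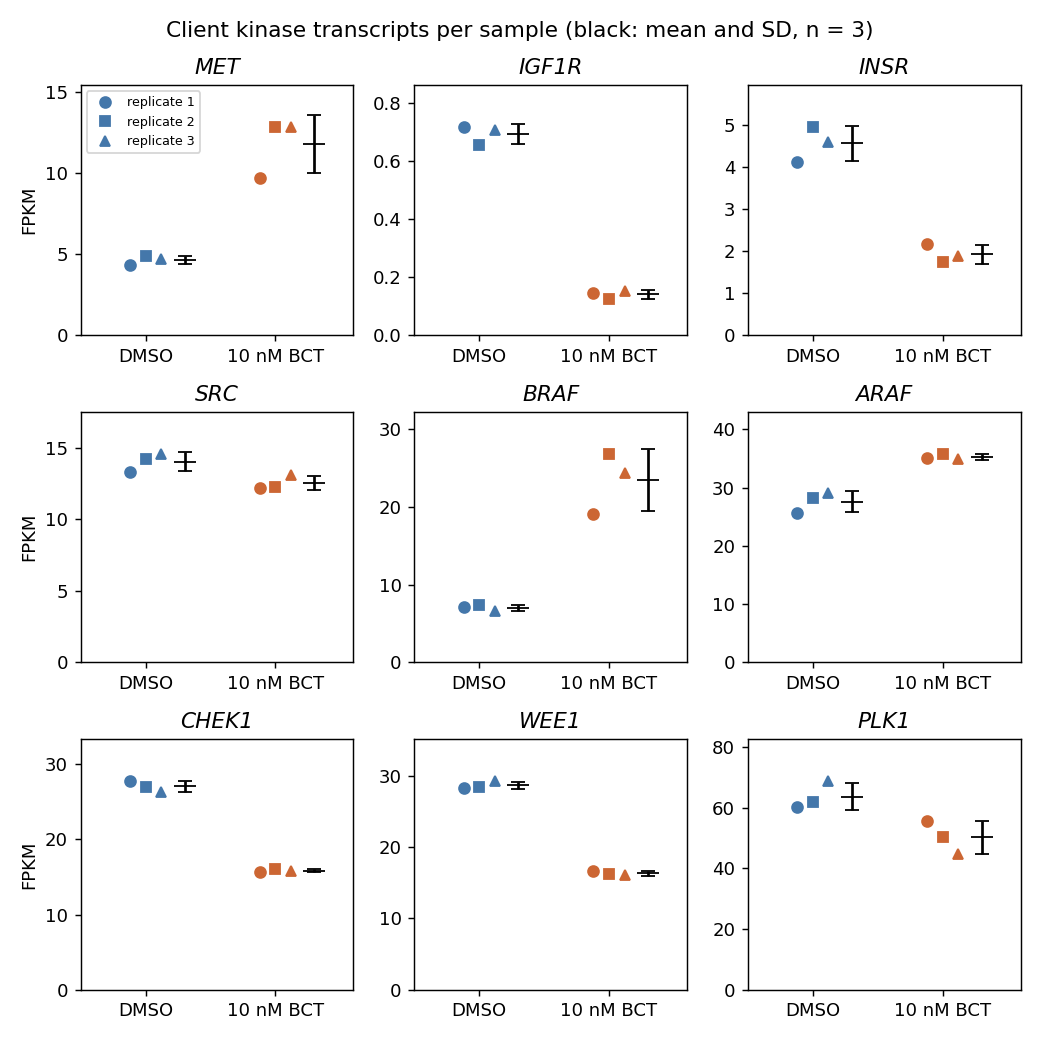
FPKM (y axis, linear from 0, its own scale per gene) of the 9 client kinases in 3 DMSO samples (blue) and 3 BCT samples (orange), with marker shape for the replicate number and black bars for the mean and SD. *BRAF* and *MET* were higher with BCT, with BCT replicate 1 the lowest BCT sample for both, and *IGF1R* and *INSR* were lower.

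MET is the receptor for hepatocyte growth factor (HGF). *MET* mRNA was listed at 4.35, 4.88 and 4.72 FPKM in the DMSO samples and at 9.71, 12.9 and 12.8 FPKM in the BCT samples. Every BCT sample was above every DMSO sample, with replicate 1 the lowest of the BCT samples. The mean rose from 4.65 ± 0.274 to 11.8 ± 1.81 FPKM (SD, n = 3), and the log2 fold change was 1.32 (SE 0.113, adjusted p = 1.02e-05, limma). Without BCT replicate 1 it was 1.45. The ligand gene *HGF*, expressed in these cells at 111 ± 4.30 FPKM with DMSO, moved the other way, to 46.7 ± 9.86 FPKM with BCT (log2 fold change -1.27, adjusted p = 2.44e-05, limma). *SPINT2*, which encodes an inhibitor of the proteases that activate HGF, also fell, by 1.13 on the log2 scale. *MST1R*, the closest relative of *MET*, was at 1.69 FPKM with DMSO and 1.40 FPKM with BCT, and its groups overlapped (adjusted p = 0.122, limma).

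INSR, the insulin receptor, and IGF1R, the receptor for insulin-like growth factor 1, are close relatives that can pair with each other in hybrid receptors. *INSR* stood at 4.12, 4.96 and 4.59 FPKM in the control samples and at 2.18, 1.74 and 1.87 FPKM after BCT. No BCT value reached a DMSO value. The group mean fell (4.56 ± 0.417 against 1.93 ± 0.227 FPKM), with a log2 fold change of -1.20 (SE 0.112, adjusted p = 1.64e-05, limma). Without BCT replicate 1 it was -1.29. *IGF1R* was the least abundant of the 9 kinases, at 0.717, 0.654 and 0.707 FPKM with DMSO and 0.147, 0.124 and 0.153 FPKM with BCT. The BCT mean was 4.90-fold below the DMSO mean. Being under 1 FPKM it was not tested with the other genes. Fitted without the filter it was called lower (log2 fold change -1.72, SE 0.128, adjusted p = 2.92e-05, limma), as were 12.9% of the genes in that fit, and the pseudocount of 0.1 FPKM makes this smaller than the ratio of the means. The ratio of *IGF1R* to *INSR*, which does not depend on how a sample is scaled, was 2.08-fold lower with BCT. That is a difference in the mean log2 ratio of -1.055. With the pseudocount of 0.1 FPKM on both genes the difference was -0.516.

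The ligand gene *IGF1* was at 1.75 ± 0.158 FPKM with DMSO and 0.166 ± 0.0522 FPKM with BCT, also under the filter and so untested. Of the secreted proteins that bind insulin-like growth factors, *IGFBP3* fell from 134 ± 14.2 to 33.6 ± 2.77 FPKM and *IGFBP2* from 90.5 ± 6.93 to 23.4 ± 2.88 FPKM (log2 fold changes of -1.99 and -1.95). *IRS2*, an adaptor that couples both receptors to PI3K, rose from 12.8 ± 0.600 to 45.2 ± 2.41 FPKM (log2 fold change 1.81). Among ligands, binding proteins, adaptors and ligand-processing genes of the 3 receptors, 24 of 30 listed genes were tested, 4 were called lower and 1 higher, and the median log2 fold change was 0.13 beside -0.04 for all tested genes. Over all genes 17.8% were called lower and 13.9% higher. The balance turned with the scaling, to 2 lower and 15 higher with equal FPKM sums and 3 and 7 with *MIR6087* left out of the sums. It turned over all 12729 genes too, to 668 lower and 5614 (44.1%) higher, and to 1208 and 3370. *IGF1* and the genes named as neighbours in the annotation were picked out after their values were seen.

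Since *INSR* and *IGF1R* were lower and *MET* higher, the 250 bases before the start of each are shown, from RefSeq and matched to GRCh37, 5′ to 3′ on the strand of the gene. Capitals mark the GC box GGGCGG, a binding sequence of SP1-type factors, searched on both strands. The *MET* window is chr7:116312000-116312249 on the plus strand, that of *IGF1R* chr15:99191518-99191767 on the plus strand, and that of *INSR* chr19:7294426-7294675 on the minus strand.
MET: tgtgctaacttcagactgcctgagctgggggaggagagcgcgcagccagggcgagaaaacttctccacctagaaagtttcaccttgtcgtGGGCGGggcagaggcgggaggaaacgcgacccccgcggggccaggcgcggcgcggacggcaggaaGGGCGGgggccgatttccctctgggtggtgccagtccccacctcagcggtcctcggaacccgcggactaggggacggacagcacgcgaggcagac
IGF1R: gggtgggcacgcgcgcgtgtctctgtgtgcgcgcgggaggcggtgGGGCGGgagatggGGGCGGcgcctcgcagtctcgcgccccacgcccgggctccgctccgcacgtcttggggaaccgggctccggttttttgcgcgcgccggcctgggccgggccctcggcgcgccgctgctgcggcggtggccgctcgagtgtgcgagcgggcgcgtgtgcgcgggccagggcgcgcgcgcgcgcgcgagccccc
INSR: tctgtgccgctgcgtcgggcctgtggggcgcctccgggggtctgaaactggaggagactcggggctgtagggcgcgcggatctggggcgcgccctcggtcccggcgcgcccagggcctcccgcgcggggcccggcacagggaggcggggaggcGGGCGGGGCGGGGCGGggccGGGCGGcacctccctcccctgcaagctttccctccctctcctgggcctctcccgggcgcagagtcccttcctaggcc
All 3 windows end at the annotated start of the main transcript. The *INSR* window held 4 GC boxes, of which 3 lie in a row that shares bases between neighbours, and the *IGF1R* and *MET* windows held 2 each. Of 35116 such windows 42.6% held at least 1. GC content was 81.2% for *IGF1R*, 78.4% for *INSR* and 68.4% for *MET*, beside a mean of 57.2%. None of the 3 held the CCAAT box, the TATA box letters TATAAA, or the CHR letters TTTGAA and its variant TTTAAA. The gene that rose and those that were lower thus shared this feature. Of the 9 kinases, 7 had a window, but those of *BRAF* and *CHEK1* begin at other starts within the gene, 661 and 1061 to 1193 bases after the main one, and are not shown.

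SRC couples receptors and integrins to the cytoskeleton. *SRC* was listed at 13.3, 14.3 and 14.6 FPKM in the control samples and at 12.2, 12.3 and 13.1 FPKM after BCT, groups that lay close without overlapping. The log2 fold change was -0.16 (SE 0.0592, adjusted p = 0.0296, limma), far under the fold threshold, and it was 0.60 after rescaling to equal FPKM sums. Leaving out BCT replicate 1 gave an adjusted p of 0.0514 (limma). Without DMSO replicate 2, DMSO replicate 3 or BCT replicate 2 it was 0.0917, 0.115 and 0.0883. Without DMSO replicate 1 or BCT replicate 3 it was 0.0243 and 0.0298. The relatives *YES1*, *LYN* and *FYN* were not called, with log2 fold changes of 0.26, 0.51 and 0.14. All 16 listed partners and substrates of SRC were tested, and *CTTN*, the actin-binding substrate cortactin, was the 1 gene called (from 84.7 ± 3.19 to 38.6 ± 5.81 FPKM), where 17.8% of all genes were lower and 13.9% higher. That call was lost with equal sums, where 0 partners were called lower and 8 higher (0 and 4 without *MIR6087*), and 2 were called lower and 1 higher without BCT replicate 1. Among all 12729 genes, 668 were lower and 5614 (44.1%) higher with equal sums, and 1208 and 3370 without *MIR6087*. Without BCT replicate 1 these were 2488 and 1932. *CSK*, which encodes the kinase that switches SRC off, was at 31.7 ± 1.57 and 18.9 ± 2.33 FPKM, a log2 fold change of -0.75 that did not reach the threshold.

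The 2 RAF members differed from each other. *BRAF* was listed at 7.14, 7.39 and 6.63 FPKM in the control samples and at 19.1, 26.9 and 24.5 FPKM after BCT. The lowest BCT sample, replicate 1, was still above every DMSO sample. The mean rose 3.33-fold, from 7.05 ± 0.387 to 23.5 ± 3.99 FPKM, the largest change among the tested kinases (log2 fold change 1.71, SE 0.118, adjusted p = 3.32e-06, limma). Without BCT replicate 1 it was 1.85. *ARAF* was listed at 25.6, 28.2 and 29.0 FPKM in the control samples and at 35.02, 35.8 and 34.9 FPKM after BCT. Its log2 fold change of 0.35 (SE 0.0584, adjusted p = 5.01e-04, limma) did not reach the fold threshold, with or without BCT replicate 1 (0.36 without it). The BRAF to ARAF ratio within a sample was 2.58-fold higher with BCT, so that *BRAF*, the lower of the pair in every sample, came nearer to *ARAF*.

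Around the RAF kinases, 28 of 30 listed genes of the RAS to ERK cascade were tested, 3 were called lower and 7 higher (17.8% and 13.9% over all genes), and the median log2 fold change was 0.23 beside -0.04. With equal sums 1 was lower and 19 higher, and without *MIR6087* 2 and 11. For all 12729 genes these counts were 668 and 5614 (44.1% higher), and 1208 and 3370. *DUSP4*, *DUSP6* and *DUSP5* encode phosphatases that take phosphate off ERK and other MAP kinases. *DUSP4* rose from 3.40 ± 0.211 to 82.0 ± 11.3 FPKM, *DUSP6* from 5.12 ± 0.366 to 17.0 ± 1.66 FPKM, and *DUSP5* from 0.456 ± 0.120 to 3.82 ± 1.17 FPKM. *DUSP5* passed the filter only through its BCT values. *PEBP1*, which encodes an inhibitor of the step from RAF to MEK, fell from 534 ± 31.5 to 151 ± 19.9 FPKM, and the small GTPase gene *RRAS* from 9.72 ± 1.09 to 3.40 ± 0.246 FPKM.

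**Figure D2:**
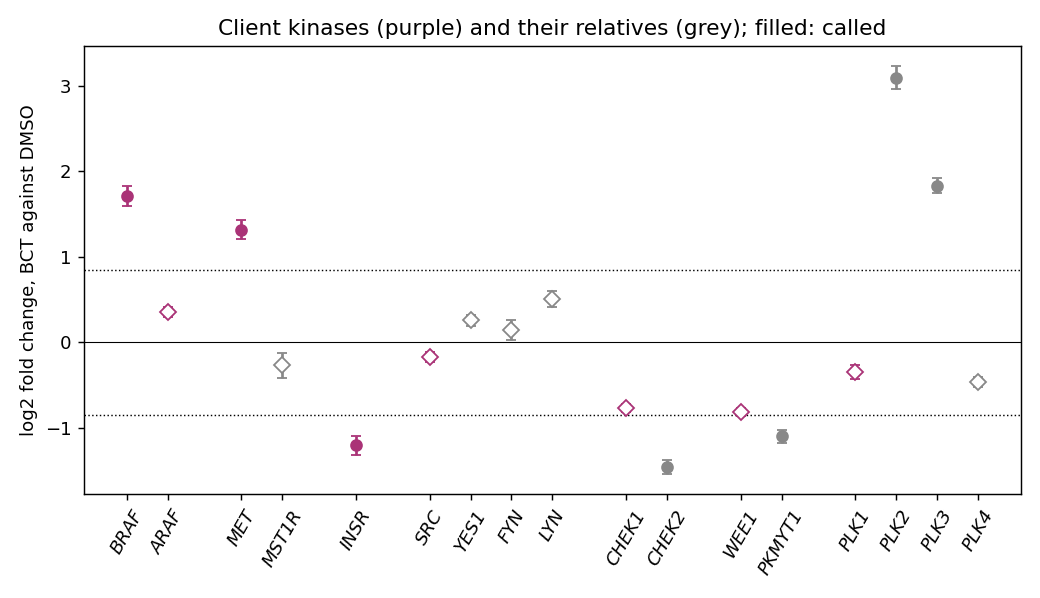
Log2 fold change of BCT against DMSO (y axis, bars are the SE of the limma fit) for the 8 tested client kinases (purple) and 9 of their tested relatives (grey), grouped by family; filled circles are called and open diamonds are not, and dotted lines mark the fold threshold of 0.85. *PLK2* and *PLK3* lie at 3.09 and 1.83, far above *PLK1* at -0.34.

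CHEK1 and WEE1 act in one checkpoint, where CHEK1 restrains the CDC25 phosphatases and WEE1 puts the inhibitory phosphate on CDK1 and CDK2. *CHEK1* was listed at 27.8, 27.1 and 26.4 FPKM in the control samples and at 15.7, 16.1 and 15.8 FPKM after BCT. *WEE1* was listed at 28.4, 28.4 and 29.3 FPKM in the control samples and at 16.7, 16.2 and 16.1 FPKM after BCT. The 2 genes thus had nearly the same level in each group, with little spread between replicates. The log2 fold changes were -0.77 for *CHEK1* (SE 0.0480, adjusted p = 2.14e-06) and -0.81 for *WEE1* (SE 0.0474, adjusted p = 1.65e-06, limma for both). Both had smaller adjusted p-values than *BRAF*, and yet both missed the fold threshold of 0.85, also without BCT replicate 1 (-0.76 and -0.82). With equal FPKM sums they were at -0.0022 and -0.043, and at -0.38 and -0.42 with *MIR6087* left out of the sums. The median over all genes was then 0.72 and 0.34. After a correction for GC content and transcript length, added after the data were seen, *CHEK1* and *WEE1* reached -0.89 and -1.03 and were called. Then 3 of 8 kinases were called lower, beside 17.1% of all genes. The WEE1 to CHEK1 ratio did not separate the groups (difference in the mean log2 ratio -0.04).

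The relatives *CHEK2*, the checkpoint kinase downstream of ATM, and *PKMYT1*, the membrane-bound relative of WEE1, were both called lower. *CHEK2* fell from 24.0 ± 0.616 to 8.76 ± 1.06 FPKM (log2 fold change -1.45) and *PKMYT1* from 82.7 ± 0.996 to 38.9 ± 4.14 FPKM (-1.09). *ATR*, the kinase that activates CHEK1, was at 4.25 ± 0.344 FPKM with DMSO and 5.19 ± 0.299 FPKM with BCT, and the CHEK1 to ATR ratio was 2.09-fold lower with BCT. The checkpoint list also holds cell cycle kinases, cyclins and CDC25 phosphatases, and shares genes with the relatives and with the mitotic genes below. Of its 28 genes, all tested, 12 were called lower and 3 higher, with a median log2 fold change of -0.70 as deposited. Over all genes these were 17.8%, 13.9% and -0.04. When the samples were rescaled to equal sums, 5 were lower and 6 higher with a median of 0.06, against 0.72 over all genes, and without *MIR6087* in the sums 9 were lower and 3 higher. Of all 12729 genes, 668 were then lower and 5614 (44.1%) higher, and 1208 and 3370 without *MIR6087*. *TIMELESS* and *CLSPN*, which carry the signal from stalled forks to CHEK1, fell from 53.6 ± 0.221 to 12.4 ± 2.61 FPKM and from 8.10 ± 0.800 to 2.07 ± 0.355 FPKM. *CDK2*, whose product WEE1 phosphorylates, fell from 128 ± 5.06 to 32.1 ± 4.40 FPKM, and its partner cyclins *CCNE1* and *CCNE2* by 2.06 and 1.66 on the log2 scale. The 3 called higher were *ETAA1*, *HUS1* and *FBXO6*, named after their values were seen.

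*PLK1* was the most abundant of the 9 kinases in both groups. It was listed at 60.2, 62.0 and 68.8 FPKM in the control samples and at 55.6, 50.2 and 44.8 FPKM after BCT. The groups did not overlap, but the nearest values were 60.2 and 55.6 FPKM. The log2 fold change was -0.34 (SE 0.0860, adjusted p = 0.00540, limma) as deposited and 0.42 after rescaling to equal sums, and *PLK1* was called in neither. Without BCT replicate 1 it was -0.42. Its relatives moved in other ways. *PLK2* and *PLK3*, known as stress- and p53-responsive members, rose from 5.99 ± 0.493 to 52.5 ± 9.93 FPKM and from 4.19 ± 0.256 to 15.2 ± 1.54 FPKM. *PLK4*, which controls centriole duplication, had a log2 fold change of -0.46 and was not called. With DMSO *PLK1* was thus the highest of the 4 family members, and with BCT it stood within the range of *PLK2*, which was listed at 41.8 to 61.5 FPKM.

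PLK1 is a classical gene of the G2 and M phases, whose promoters carry CHR and CCAAT elements. Its 250 bases before the start are shown because they hold both, at chr16:23689960-23690209 (GRCh37, plus strand), with CHR letters (TTTGAA and its variant TTTAAA), the CCAAT box and the GC box in capitals and none of these overlapping.
PLK1: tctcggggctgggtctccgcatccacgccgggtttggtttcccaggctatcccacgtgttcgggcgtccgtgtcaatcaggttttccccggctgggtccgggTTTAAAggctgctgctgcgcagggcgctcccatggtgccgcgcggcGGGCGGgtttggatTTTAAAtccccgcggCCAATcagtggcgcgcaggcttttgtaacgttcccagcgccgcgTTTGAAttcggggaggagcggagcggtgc
TTTGAA began 29 bases before the start and CCAAT 73 bases before it. TTTAAA occurred at 148 and 88 bases and GGGCGG at 102 bases before the start. Of all windows, 13.3% held TTTGAA, 11.3% TTTAAA and 32.0% CCAAT. Of 34 genes of mitotic entry and the spindle, all tested, 10 were called lower and 0 higher in limma, with a median log2 fold change of -0.57 as deposited, beside 17.8%, 13.9% and -0.04 over all genes. Rescaling to equal sums gave 1 lower and 2 higher with a median of 0.19, against 0.72 over all genes, and 1 and 0 without *MIR6087*. The counts over all 12729 genes were 668 and 5614 (44.1% higher), and 1208 and 3370. Limma called 12 of the 34 lower without BCT replicate 1 (2488 of all 12729 genes) and 6 without BCT replicate 3 (2146 of all genes). A test against the fold threshold gave 4 of the 34 (1392 of all genes), so that the count rests on genes near that threshold. The largest falls were in *MAD2L1*, a spindle checkpoint gene, from 99.6 ± 4.67 to 29.8 ± 3.88 FPKM, and in *INCENP*, *MYBL2* and *FOXM1*, by 1.20, 1.18 and 1.10 on the log2 scale. *MYBL2* and *FOXM1* encode transcription factors of the G2/M genes. *AURKA*, which encodes the kinase that activates PLK1, was at 38.5 ± 0.741 and 39.3 ± 3.39 FPKM, with overlapping groups. In bulk RNA, a smaller share of cells in a cell cycle phase and less RNA per cell cannot be told apart.

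**Figure D3:**
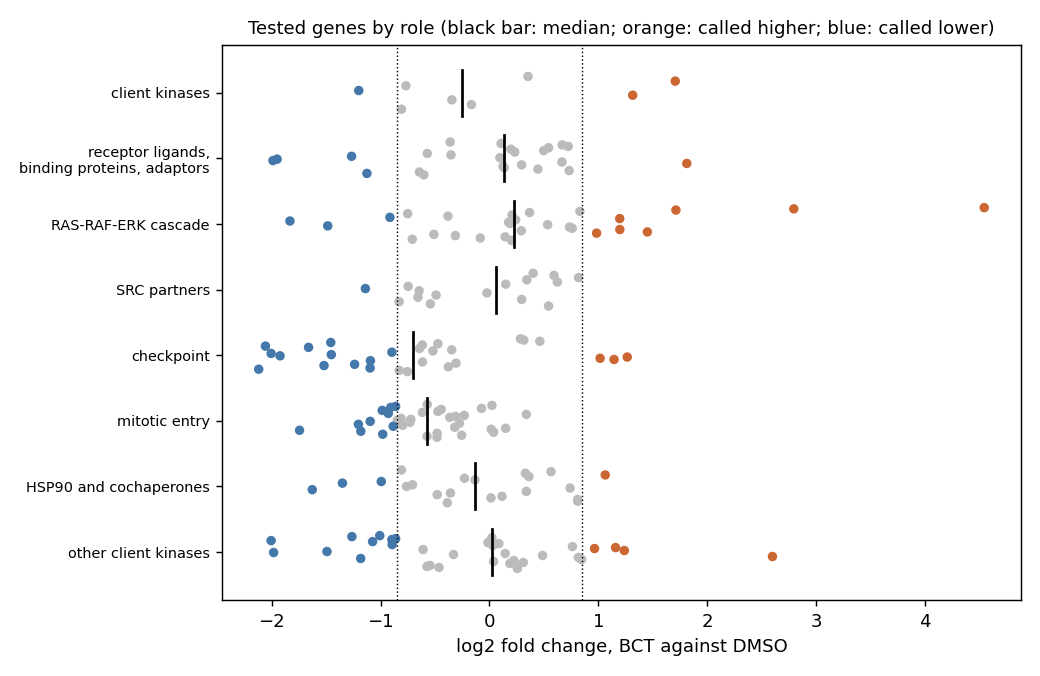
Log2 fold change of BCT against DMSO (x axis) for each tested gene of the client kinases and of 7 lists around them (rows); blue points are called lower, orange points higher, grey points not called, black bars are medians and dotted lines the fold threshold. Checkpoint and mitotic entry genes have medians of -0.70 and -0.57 as deposited, while the other rows have medians between -0.26 and 0.23. With equal sums, not drawn, checkpoint and mitotic entry genes had medians of 0.06 and 0.19. The other rows then had 0.51 to 0.99, and all genes 0.72.

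In both groups the 2 HSP90 genes were more abundant than any of the 9 kinases. *HSP90AA1* was at 575 ± 27.1 FPKM with DMSO and 352 ± 28.1 FPKM with BCT, and *HSP90AB1* at 683 ± 26.7 and 403 ± 20.9 FPKM, log2 fold changes of -0.71 and -0.76 that missed the fold threshold. *CDC37* was at 140 ± 1.43 FPKM with DMSO and 176 ± 5.75 FPKM with BCT and was not called. Of 21 chaperone and cochaperone genes, all tested, 3 were called lower (*HSPA8*, *FKBP5* and *FKBP4*) and 1 higher (*CDC37L1*, a relative of *CDC37*), with a median log2 fold change of -0.13, where all genes had 17.8%, 13.9% and -0.04. Equal sums gave 1 lower and 9 higher with a median of 0.64, against 0.72 over all genes, and 2 and 5 without *MIR6087*. Of all 12729 genes, 668 were lower and 5614 (44.1%) higher with equal sums, and 1208 and 3370 without *MIR6087*.

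A further list of 39 kinase genes known as HSP90 clients but not among the 9 was described the same way. Of its 34 tested genes, 10 were called lower and 4 higher, with a median log2 fold change of 0.03, beside 17.8%, 13.9% and -0.04 over all genes. The counts called lower were 6 in the test against the fold threshold and 5 after quantile normalization, beside 1392 and 2003 of all 12729 genes. The balance turned to 2 lower and 15 higher with equal sums, and to 4 and 8 without *MIR6087*. For all genes it turned to 668 lower and 5614 (44.1%) higher, and to 1208 and 3370. *FGFR4* and *FGFR3*, receptors for fibroblast growth factors, fell from 7.30 ± 0.667 to 1.77 ± 0.0615 FPKM and from 27.1 ± 0.417 to 9.72 ± 2.05 FPKM. *AKT2* fell from 36.0 ± 0.363 to 15.0 ± 2.02 FPKM. *JAK1*, the kinase of cytokine receptors, rose from 0.811 ± 0.105 to 5.45 ± 0.892 FPKM and passed the filter only through its BCT values. With a minimum mean of 5 FPKM, which leaves out *JAK1*, 26 genes of the list were tested. Of these 9 were called lower and 2 higher, beside 1577 and 1150 of 9319 genes. Client kinase genes in this list, as among the 9, thus included both higher and lower ones also without *JAK1*.

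The order of levels changed between the groups. With DMSO, *PLK1* was highest, followed by *WEE1* and *CHEK1*, whose ranges did not overlap, and *ARAF*, whose range overlapped both, then *SRC*, *BRAF*, then *INSR* and *MET* with overlapping ranges, and *IGF1R*. With BCT, *BRAF* stood behind *PLK1* and *ARAF* and above *WEE1* and *CHEK1*, whose ranges met at 16.1 FPKM. *MET*, at 9.71 to 12.9 FPKM, reached into the range of *SRC*.

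Ratios between 2 genes of a sample do not move with its scaling, and 13 pairs were compared with exact two-sided permutation tests. The groups did not overlap in 11 pairs, each with an exact p = 0.1, the smallest value that 3 samples against 3 can give, and an adjusted p of 0.118, so that none could pass. The MET to MST1R log2 ratio was 1.41 to 1.50 with DMSO and 2.53 to 3.42 with BCT. The CHEK1 to CHEK2 log2 ratio was 0.10 to 0.21 with DMSO and 0.65 to 1.001 with BCT. The PLK1 to AURKA log2 ratio was 0.65 to 0.81 with DMSO and 0.33 to 0.39 with BCT. The SRC to YES1 ratio was 1.34-fold lower with BCT. The WEE1 to CHEK1 and WEE1 to CDC25A pairs overlapped, with exact p = 0.5 and p = 0.2.

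For each called kinase, the 3 tested genes with the most similar values over the 6 samples were found by Euclidean distance on log2(FPKM + 0.1) less the DMSO mean. They were *PRPF38B*, *C16orf72* and *RSRC2* for *BRAF* (distances 0.108 to 0.139), *ZNF654*, *EEPD1* and *BRAP* for *MET* (0.0893 to 0.0956), and *EME1*, *GJC1* and *MYO9B* for *INSR* (0.0968 to 0.108).

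The signs of *SRC* and *PLK1* turned with rescaling to equal FPKM sums, as the plot of the fold changes under each setting shows. Rescaling to equal medians and quantile normalization kept the direction of all 8 tested kinases and the same 3 calls (*INSR* at -1.22 and -1.16). Rescaling to equal FPKM sums moved the median log2 fold change over all tested genes from -0.04 to 0.72, and the share of called genes that were lower from 56.2% to 10.6%. Without *MIR6087* in the sums these were 0.34 and 26.4%. With equal sums, *BRAF* (2.47), *MET* (2.07) and *ARAF* (1.12) were called higher, 3 of 8 beside 44.1% of all genes, and *INSR* (-0.46) lost its call. Positions relative to the median of all genes are given as deposited and with equal sums. Equal sums multiply a whole sample by 1 factor, so these positions could hardly change. *BRAF* stood at 1.75 and *MET* at 1.35 in both, *INSR* at -1.16 and -1.18, and *WEE1* at -0.77 and -0.76. *CHEK1* stood at -0.73 and -0.72, and *PLK1* at -0.31 and -0.30.

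**Figure D4:**
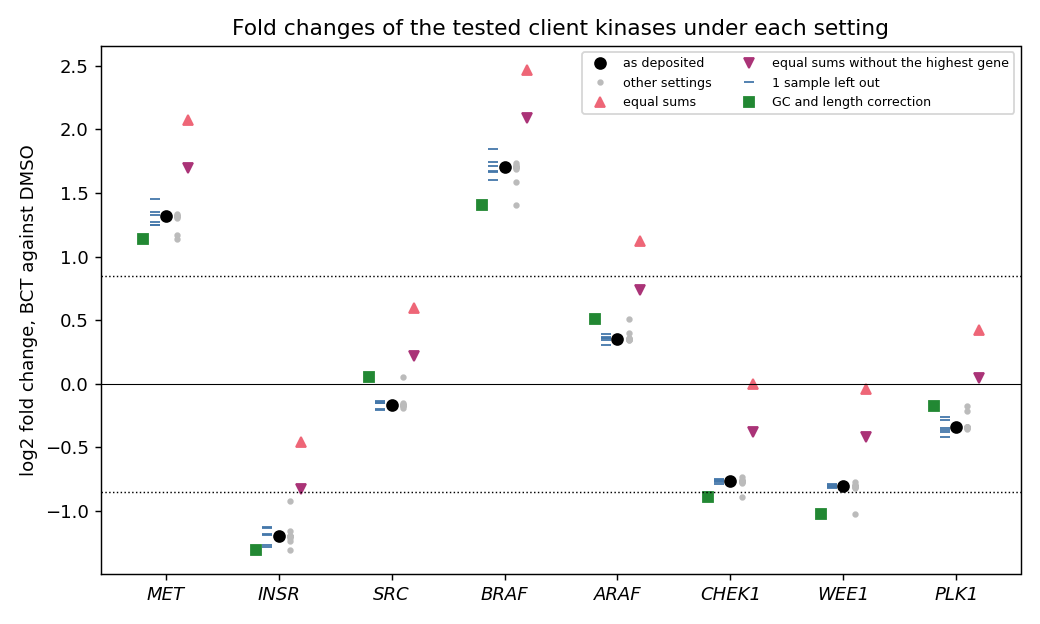
Log2 fold change of BCT against DMSO (y axis) for the 8 tested kinases (x axis) under each setting: values as deposited (black), 1 sample left out (blue dashes), rescaling to equal sums (pink, upward), the same without *MIR6087* (purple, downward), correction for GC content and length (green) and the other settings (grey); dotted lines mark the fold threshold. *BRAF* and *MET* stay above the threshold throughout, and *SRC* and *PLK1* change sign with both rescalings to equal sums.

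The files' annotation places the genes on hg19 at chromosome 7 116312459 to 116438440 (*MET*), 15 99189095 to 99507759 (*IGF1R*), 19 7112266 to 7294011 (*INSR*), 20 35973088 to 36033835 (*SRC*), 7 140433813 to 140624564 (*BRAF*), X 47420499 to 47479256 (*ARAF*), 11 125495031 to 125550793 (*CHEK1*), 11 9595228 to 9611313 (*WEE1*) and 16 23690143 to 23724821 (*PLK1*). The spans of *ARAF*, *CHEK1*, *IGF1R* and *PLK1* are shared with other genes. *BRAF* is overlapped on the opposite strand by a long noncoding RNA gene over 28114 bases, and in GENCODE also by *NDUFB2* over 3464 bases, though 0 of the latter bases fall within the span the files give to *BRAF*. *NDUFB2* was at 493 FPKM with DMSO and 301 FPKM with BCT, against the direction of *BRAF*. The library kit does not mark strand, so reads from overlapping genes cannot be told apart. *ACRV1*, on the opposite strand, overlaps the end of *CHEK1* by 4734 bases and was at 1.55 FPKM with DMSO and 4.33 FPKM with BCT, against the direction of *CHEK1*. *TIMP1*, listed with the span of *ARAF*, was at 157 and 127 FPKM, and *SYN1*, which overlaps the end of *ARAF* by 8 bases, at 2.07 and 3.81 FPKM. *ERN2*, which overlaps the end of *PLK1* by 58 bases, was at 0.0250 FPKM or less in every sample. How far such reads enter the kinases' values was not tested.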

How the data were processed

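RNA from 22RV1 cells treated with DMSO (n = 3) or 10 nM BCT (n = 3) for 24 h was sequenced with an unstranded TruSeq kit. Trimmomatic (0.38, per the submitters' processing notes), HISAT2 on hg19 and StringTie were used by the authors, who deposited FPKM values, 1 file per sample; the notes also name HTSeq and CASAVA, and the gene annotation is not given in the sources used here. Counts are unknown, so no count test or counting interval is given. The groups come from the sample labels, nothing says that replicates were separate cultures, and p-values measure only the spread between these samples.

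Values were taken as log2(FPKM + 0.1), which understates changes of low genes, for genes averaging 1 FPKM or more, and fitted with limma 3.58.1 in R 4.3.3 (mean-variance trend, Benjamini-Hochberg over 12729 genes). The call threshold is a log2 fold change beyond 0.85 in either direction with an FDR below 0.05. Pair ratios were compared with exact permutation tests (scipy 1.17.1). The limma step was tested on simulated data, and the permutation test on small made-up examples with and without a shift. No list was given a test of its own: counts and medians stand beside those of all genes. Some genes are in more than 1 list, so the counts are not independent. Members, lists and pairs were chosen with earlier results of these data known. Named genes are the members, their relatives, both genes of each pair, *HSP90AA1*, *HSP90AB1* and *CDC37*, at most 5 genes per list with the largest change, and the 3 nearest genes of each called member. GC content and transcript length came from GENCODE (lifted to GRCh37) for 97.6% of tested genes. Promoter windows came from RefSeq (GRCh38.p14) and were placed on GRCh37 by an exact match. Positions have 1 added to the deposited start. Alternatives covered the pseudocount, filter, scaling, variance model, FDR, a test against the fold threshold, a replicate block, each sample left out and, added after seeing the data, GC content and length. Some genes covered by this rule and these lists are not reported here.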

Additional observations from a re-analysis of the deposited data

How the results depend on the processing

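*BRAF* and *MET* were called higher under all settings tried. *INSR* lost its call with equal sums (-0.46) and with equal sums without the highest gene (-0.83), where 0 kinases were called lower, and was not tested at a minimum of 5 FPKM (0 called lower). Without a filter, *IGF1R* made it 2 called lower. *SRC* reversed with equal sums (0.60), without the highest gene (0.22) and with the GC content and length correction (0.052, the same with a replicate block). *PLK1* reversed with equal sums (0.42) and without the highest gene (0.042). That correction gave 5 kinases called and 3 lower, with and without the replicate block. The cause was not tested. Over all genes, equal sums gave 6282 calls (668 lower, 5614 higher), equal sums without the highest gene 1208 lower and 3370 higher, no filter 2657 higher, the minimum of 5 FPKM 1150 higher, and the test against the fold threshold 2425 (1392 lower, 1033 higher).

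Leaving out any 1 sample changed no call of a kinase. The 13 pair differences kept their sign in all 91 alternative values. For the 11 pairs whose groups did not overlap, leaving out 1 sample could not have changed the sign. Same-numbered DMSO and BCT samples had deviations correlated at 0.116, 0.0328 and 0.0342, and those with different numbers at -0.115 to 0.074. With 3 samples per group these values cannot decide whether the numbers pair the samples. With the replicate block 4033 genes were called and the same 3 kinases. Count-based tests could not be run on FPKM. Without counts, no counting error can be given for *IGF1R*, at 0.654 to 0.717 FPKM with DMSO and 0.124 to 0.153 FPKM with BCT.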
